A study of Mus musculus with 6 samples.

Results

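The angiopoietin-Tie system of the mouse kidney glomerulus is described here through 5 genes chosen by name: the ligands Angpt1 and Angpt2, the receptors Tek (also called Tie2) and Tie1, and the phosphatase Ptprb (also called VE-PTP). All 5 had a row among the 28327 genes of the single-cell tables and in both bulk tables. The study measured gene expression in glomeruli, the capillary tufts that filter blood, of 8-week-old male CD1 IGS mice, an outbred stock with no transgene or treatment named in the labels. 4 Drop-seq libraries (replicates 1 to 4) held dissociated glomerular cells fixed in methanol (80% in PBS). Drop-seq pairs single cells with barcoded beads in droplets and tags each captured transcript with a random barcode, so that values are counts of tagged molecules (UMIs). For bulk sequencing, 500 ng of RNA from live whole glomeruli made 1 library and 95 ng from dissociated, fixed and sorted cells made the other.

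Angpt1 is the agonist of Tek, a receptor tyrosine kinase that keeps vessels quiescent, whereas Angpt2 acts as a weak agonist or an antagonist depending on context. Tie1 binds neither angiopoietin directly with high affinity but associates with Tek and modulates its signal, and Ptprb removes phosphate from Tek in endothelial cells. Downstream, Tek signals through phosphoinositide 3-kinase and Akt to FOXO transcription factors. In the glomerulus, podocytes and mesangial cells have been described as sources of angiopoietins, and endothelial cells as the cells that carry the receptors.

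The Drop-seq tables held 15465 barcodes, and 13993 were kept: a barcode needed 300 or more genes and no more than 20% of its UMIs from mitochondrial genes. The kept cells per library ranged from 2809 to 4099 and their median depth from 816 to 1156 UMIs. 15 barcode sequences occurred in 2 or more libraries, 3 of them among the kept cells. Clusters were named from marker genes, with the 5 genes and their pathway left out of the clustering: 10381 podocyte-like, 1853 endothelial-like, 320 mural-like, 404 parietal epithelial-like, 928 tubular-like and 48 immune-like cells, and 59 cells without a name. Endothelial markers took 0.699% ± 0.0306 (SD, n = 4 libraries) of all UMIs in endothelial-like cells, and the podocyte-like figure was 0.00353% ± 0.00153. Podocyte markers took 0.413% ± 0.0571 of the UMIs in endothelial-like cells. The mural-like cluster was led by Ren1, Acta2 and Rgs5, genes of renin-producing and smooth muscle cells. The parietal epithelial-like cells carried podocyte markers at 1.36% ± 0.225 of UMIs, against 2.06% ± 0.142 in podocyte-like cells, and 94.8% of them held at least 2 marker UMIs of another type. That cluster scored 0.779 on parietal epithelial markers and 0.789 on podocyte markers, so its name is the least secure. Holding at least 2 marker UMIs of another type was not limited to it. Tubular-like cells did so in 43.0% of cases and endothelial-like cells in 36.5%. For mural-like cells the share was 35.6%, and for podocyte-like cells it was 2.80%. The larger endothelial-like cluster, of 1733 cells, scored 0.962 on endothelial markers and 1 on red blood cell markers. Red blood cell markers took 0.0817% ± 0.111 of the UMIs in endothelial-like cells, from 0.000381% to 0.236% by library. Separate animals behind the libraries are not stated in the labels. The p-values therefore measure spread between libraries alone, which the fit estimates with information shared across genes, and this may be technical. The types were drawn from the same cells in which the genes were compared, so each p-value describes these clusters.

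Expression levels are given in CPM, the usual scaling of a gene's UMIs by the total UMIs that a cell type has in a library. Tests are edgeR's quasi-likelihood test on UMIs summed per library and type, with library as a block and Benjamini-Hochberg adjustment over 7284 genes, at a threshold of 0.05. The 5 genes gave few UMIs: 62 for Angpt1, 40 for Angpt2, 449 for Tek, 260 for Tie1 and 943 for Ptprb in all kept cells. 4 of the 5 passed the filter on low counts. Angpt2 passed it through mural-like cells and the other 3 through endothelial-like cells, the types in which each was high, so their passing is no independent evidence of a difference.

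The sequences before the start sites of Tek and Tie1 are shown for orientation, and no link between them and the levels was tested. They come from RefSeq (GRCm38.p6), whose promoter table matched 2 of the 5 genes. Capitals mark GGAA or its complement TTCC, the core recognised by ETS factors, a transcription factor family active in endothelial genes. The Tek sequence covers chr4:94739039-94739288 on the plus strand. The Tie1 sequence covers chr4:118490062-118490099 on the minus strand and is shorter because the rest of the window lies inside the GENCODE Tie1 gene.
Tek: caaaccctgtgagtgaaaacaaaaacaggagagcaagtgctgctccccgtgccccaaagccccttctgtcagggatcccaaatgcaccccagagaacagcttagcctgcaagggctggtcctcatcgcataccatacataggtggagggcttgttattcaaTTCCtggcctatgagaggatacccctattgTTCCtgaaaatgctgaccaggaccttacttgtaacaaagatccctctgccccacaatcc
Tie1: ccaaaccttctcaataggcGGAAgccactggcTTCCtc
In the full 250 bases before the start, both strands counted, Tek held 2 of these cores and Tie1 held 7. Of 32851 promoters of that length in the table, 93.4% held at least 1, the median was 3, 76.8% held as many as Tek or more, and 3.82% held as many as Tie1 or more. A match is a description of letters and does not show that a factor binds.

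Angpt1, the Tek agonist (GRCm38 chromosome 15, 42424723 to 42676977, minus strand), was sparse in every cell type and was found mostly in tubular-like cells. Tubular-like cells held 74.2% of its kept UMIs, 46 in all, whereas 10381 podocyte-like cells held 4. These shares describe dissociated cells. In bulk, the mesangial markers Itga8, Serpine2 and Pdgfrb were lower after dissociation (log2 ratios -6.44, -4.82 and -2.77). Angpt1 was lower there as well (-1.46). Whether mesangial cells carried Angpt1 was not tested. In tubular-like cells its level was 25.1, 24.6, 3.21 and 29.1 CPM in replicates 1 to 4, from 9, 26, 1 and 10 UMIs. In podocyte-like cells it was 0.313, 0.698, 0 and 0 CPM. The tubular-like values were above the podocyte-like values in all 4 libraries without overlap, and replicate 3 was the low one. In endothelial-like cells 7 UMIs gave 4.77 ± 0.957 CPM (SD, n = 4), and in parietal epithelial-like cells 3 UMIs gave 5.48 ± 6.43. In mural-like cells the only 2 UMIs lay in 1 cell of replicate 2, so that the level there was 50.3 CPM in that library and 0 in the other 3.

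Angpt1 did not pass the filter on low counts and was therefore tested only in the fit without that filter, in which 12.6% of 27726 genes were called higher in tubular-like cells. There it was higher in tubular-like than in podocyte-like cells by 5.64 on the log2 scale (SE 0.538, edgeR adjusted p = 2.57e-24), a contrast in which 23.2% of genes were called in either direction. The difference from endothelial-like cells was 2.20 (SE 0.580, adjusted p = 0.00109, with 21.4% of genes called). It was also higher in endothelial-like than in podocyte-like cells by 3.44 (SE 0.850, adjusted p = 0.000406, with 22.4% called). The tubular-like level did not differ at the threshold from the mural-like level (adjusted p = 0.132, with 11.6% called), and neither did the endothelial-like from the parietal epithelial-like level (adjusted p = 1). The p-values of this fit equal those of a normal distribution at the log2 difference over its SE. Angpt1's own spread over the libraries therefore carried little weight, and these p-values do not measure how well the libraries agree. Within the tubular-like cells, Angpt1 was found in both clusters. The 180 cells led by Aqp2 and Hsd11b2, genes of the collecting system, held 17 UMIs at 55.2, 71.9, 0 and 115.7 CPM in replicates 1 to 4. The 748 cells led by Pvalb, Umod and Slc12a3, genes of the thick ascending limb and distal convoluted tubule, held 29 UMIs at 19.8, 15.7, 3.87 and 24.5 CPM. The first cluster was the higher one in 3 of the 4 libraries, on counts too small for more than a description. A further 10 Angpt1 UMIs lay in barcodes above the mitochondrial limit, which were left out.

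Angpt2, the context-dependent ligand (chromosome 8, 18690263 to 18741562, minus strand), was highest on average in mural-like cells. Its level there was 103.6, 50.3, 63.4 and 40.7 CPM in replicates 1 to 4, from 20 UMIs in 18 of 320 cells. All 4 values lay above those of podocyte-like cells, which reached at most 0.313 CPM, of endothelial-like cells, which reached at most 3.81, and of tubular-like cells, which reached at most 8.38. Mural-like cells held 50% of the kept Angpt2 UMIs. This share describes dissociated cells, and the mural-like cluster was led by renin and smooth muscle genes. In bulk, the mesangial markers Itga8, Serpine2 and Pdgfrb were lower after dissociation (log2 ratios -6.44, -4.82 and -2.77). Ren1, Acta2 and Myh11 changed little (-0.11, 0.06 and -0.18). Whether mesangial cells carried Angpt2 was not tested. Angpt2 was higher in mural-like than in podocyte-like cells by 7.53 on the log2 scale (SE 0.840, edgeR adjusted p = 4.66e-12), than in endothelial-like cells by 4.95 (SE 0.880, adjusted p = 4.62e-06) and than in tubular-like cells by 4.35 (SE 0.849, adjusted p = 1.61e-05). The last of these was 5.51 without replicate 1. Of all genes tested, 33.7%, 25.5% and 38.6% were called in these 3 contrasts, in either direction. Of the 4 genes tested, Angpt2 was the 1 called higher in mural-like cells against the mean of the other types, beside 12.4% of all genes tested. The endothelial-like level, 2.17 ± 1.62 CPM, rested on 3 UMIs and did not differ from the podocyte-like level at the threshold (adjusted p = 0.072).

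In parietal epithelial-like cells Angpt2 stood at 0, 0, 95.6 and 11.4 CPM in replicates 1 to 4. Of the 10 UMIs in replicate 3, 7 lay in a single cell, and that cell held 5 tubular, 2 podocyte and 1 parietal epithelial marker UMIs. The test against the mean of the other types passed the threshold (log2 fold 2.66, SE 0.736, edgeR adjusted p = 0.00544, with 11.6% of all genes called higher). It rested on replicate 3: without that library the log2 fold was -0.45, with adjusted p = 0.965, and the mean level was 3.81 CPM. Mural-like and parietal epithelial-like cells did not differ at the threshold (adjusted p = 0.113, with 21.6% of genes called). Angpt2 lies inside the gene Mcph1, which runs on the opposite strand, and the strand setting of the counting was not given in the sources used here, so reads of the pair cannot be told apart with certainty.

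**Figure D1:**
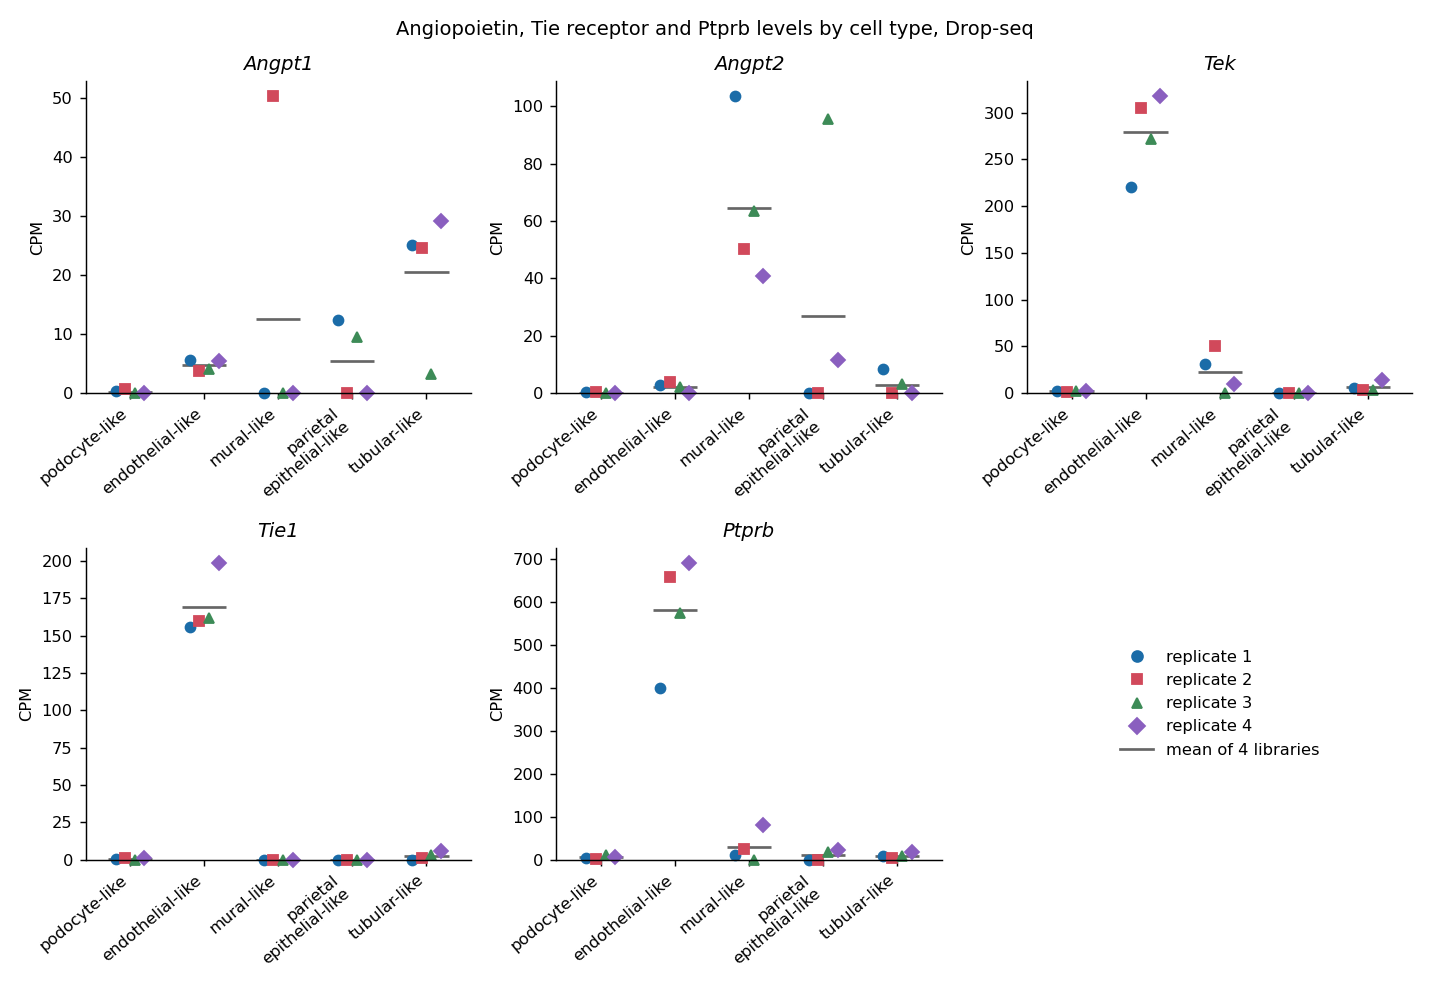
Levels of the 5 genes in CPM (vertical axes, each with its own scale) in 5 cell types (horizontal axes). Points are the 4 Drop-seq libraries and bars their mean: Tek, Tie1 and Ptprb are high in endothelial-like cells in every library, Angpt2 in mural-like cells, and Angpt1 in tubular-like cells apart from replicate 3 and from 1 mural-like value of 50.3 CPM that rests on a single cell. In replicate 3, Angpt2 in parietal epithelial-like cells (95.6 CPM) lies above its mural-like value (63.4 CPM).

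Tek, the angiopoietin receptor (chromosome 4, 94739289 to 94874976, plus strand), was found mainly in endothelial-like cells, with 90.4% of its kept UMIs in endothelial-like cells. Its level there was 220.7, 304.5, 272.2 and 317.8 CPM in replicates 1 to 4, or 278.8 ± 43.2. Podocyte-like cells stood at 2.14 ± 0.977, tubular-like cells at 6.78 ± 5.28 and mural-like cells at 22.9 ± 22.4 CPM, and no value of these types reached those of endothelial-like cells. The log2 difference between endothelial-like and podocyte-like cells was 7.05 (SE 0.236, edgeR adjusted p = 5.88e-39), a 133-fold difference, in a contrast in which 60.6% of genes were called. It was 5.28 against tubular-like cells (SE 0.309, adjusted p = 7.10e-25, with 61.7% of genes called) and 3.91 against mural-like cells (SE 0.431, adjusted p = 8.67e-12), which became 4.50 without replicate 1 and 5.80 without cells holding markers of another type. No Tek UMI was found in 404 parietal epithelial-like cells. With 3 UMIs over the type taken as the floor, the endothelial-like level was at least 45.0-fold higher. Below endothelial-like cells, mural-like and tubular-like cells did not differ at the threshold (adjusted p = 0.210), while both were above podocyte-like cells (adjusted p = 0.00378 and 0.00907). Of all genes tested, 58.6% were called between tubular-like and podocyte-like cells. The mural-like call was lost without replicate 1 or 2 (edgeR adjusted p = 0.0665 and 0.0575), and the tubular-like call without replicate 4 (0.126) or at a mitochondrial limit of 10% (0.416).

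The 6 mural-like Tek UMIs lay in 4 cells, and endothelial markers took 0.0734% ± 0.0289 of mural-like UMIs, between the endothelial-like and podocyte-like shares. Without cells holding markers of another type, neither the mural-like nor the tubular-like level differed at the threshold from the podocyte-like level (edgeR adjusted p = 0.583 and 0.0705).

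Tie1, the receptor that associates with Tek (chromosome 4, 118471191 to 118490061, minus strand), had the narrowest distribution of the 5, with 95.4% of its kept UMIs in endothelial-like cells. The levels there were 155.6, 159.8, 161.7 and 199.0 CPM in replicates 1 to 4. Replicates 1 to 3 lay close together and replicate 4 above them. Podocyte-like cells stood at 0.566 ± 0.491 and tubular-like cells at 2.49 ± 2.59 CPM, from 8 and 4 UMIs. Tie1 was higher in endothelial-like than in podocyte-like cells by 7.80 on the log2 scale (SE 0.322, edgeR adjusted p = 1.33e-32) and than in tubular-like cells by 6.09 (SE 0.435, adjusted p = 4.20e-20), the latter being 6.73 without replicate 4. No Tie1 UMI was found in mural-like or parietal epithelial-like cells, which places the endothelial-like level at least 16.8-fold and 27.5-fold higher, at a floor of 3 UMIs over each type. Podocyte-like and tubular-like cells did not differ at the threshold (adjusted p = 0.115).

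Ptprb, the endothelial phosphatase that acts on Tek (chromosome 10, 116275523 to 116389535, plus strand), followed the receptors, with 89.5% of its kept UMIs in endothelial-like cells. Replicates 1 to 4 gave 398.9, 658.4, 573.1 and 690.8 CPM there, replicate 1 being the lowest. Mural-like cells gave 10.4, 25.2, 0 and 81.3 CPM, podocyte-like cells 6.10 ± 4.91, parietal epithelial-like cells 10.5 ± 12.2 and tubular-like cells 9.81 ± 5.68. Against the mean of the other 4 types Ptprb was higher in endothelial-like cells by 5.75 on the log2 scale (SE 0.189, edgeR adjusted p = 2.50e-40). The pairwise difference was 6.75 against podocyte-like cells (SE 0.199, adjusted p = 2.10e-43), 4.25 against mural-like cells (SE 0.371, adjusted p = 6.51e-16) and 6.11 against parietal epithelial-like cells (SE 0.417, adjusted p = 4.19e-21, with 36.7% of genes called). The podocyte-like minus endothelial-like difference was -7.38 without replicate 3, the mural-like difference 5.79 without replicate 4 and 5.32 without cells holding markers of another type, and the parietal epithelial-like one 6.84 without replicate 3. Mural-like cells were above podocyte-like cells (log2 difference 2.51, SE 0.756, edgeR adjusted p = 0.00608), but 8 of the 10 mural-like UMIs came from replicate 4, and in replicate 3 mural-like cells had none. That call was lost without replicate 4 (podocyte-like minus mural-like -1.04, adjusted p = 0.647), without cells holding markers of another type (0.301) and with at least 500 genes per cell (0.135). Tubular-like and podocyte-like cells did not differ at the threshold (adjusted p = 0.169). In podocyte-like cells the level ran from 1.40 CPM in replicate 2 to 12.4 in replicate 3. Tek, Tie1 and Ptprb were the 3 of the 4 genes tested that were called higher in endothelial-like cells, where 27.8% of all genes tested were called higher.

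Counted by cell, the receptors were detected in a minority of endothelial-like cells. After each cell was thinned to 500 UMIs, Tek was detected in 12.7% ± 2.14 of endothelial-like cells (SD, n = 4 libraries), Tie1 in 8.83% ± 1.72 and Ptprb in 22.7% ± 4.99, with 378 shallower cells left out. Without thinning the shares were 17.5%, 12.0% and 30.4%. Podocyte-like cells, taken as the background, gave 0.0752%, 0.0288% and 0.348% after thinning. Their median depth was 1016 UMIs against 641 in endothelial-like cells. Of the 1853 endothelial-like cells, 663 had UMIs of exactly 1 of the 3 genes, 184 of exactly 2, 15 of all 3, and 991 of none. The 15 cells had a median of 1160 UMIs and the 991 cells one of 609, so the number of genes seen in a cell moved with its depth. In mural-like cells Angpt2 was detected in 3.40% ± 1.83 after thinning and in 5.52% ± 2.12 without. Angpt1 was detected in 0.778% ± 0.591 of tubular-like cells after thinning, and in 3.33% ± 1.79 without it.

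Endothelial-like cells were clustered again, with the 5 genes left out, to see whether the receptors differed between kinds of endothelial cell. Subcluster 2, 1068 cells led by Cd14, Adamts5, Cd300lg and Ehd3, had the highest Tek. Subcluster 3, 155 cells led by Mgp, Vcam1, Fbln5 and Jag1, had the highest Ptprb. Subcluster 1 held 419 cells led by Tspan8, Calca and Fxyd6. Subcluster 0, 211 cells, was led by Clic3, Cdkn1c and Rab3b and carried podocyte markers at 1.46% of UMIs, against at most 0.164% in the others. Red blood cell markers took 0.179% of UMIs in subcluster 2 and at most 0.0343% in the others.

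Tek stood at 316.6, 395.3, 366.4 and 450.9 CPM in subcluster 2 and at 230.0, 304.6, 235.6 and 100.4 CPM in subcluster 3, in replicates 1 to 4. Its values in subcluster 2 were above those in every other subcluster in all 4 libraries without overlap. Against the mean of the other subclusters the log2 difference was 1.18 (SE 0.197, edgeR adjusted p = 3.58e-06, adjusted over 1832 genes, of which 16.8% were called higher). Without cells holding markers of another type, which removed subcluster 0, it was 0.89 with adjusted p = 0.0124. The difference between subclusters 2 and 3 was 0.96 (SE 0.318, adjusted p = 0.0233, with 20.3% of genes called), and it missed the threshold with DESeq2 (adjusted p = 0.0715). Without replicate 4, the library with the lowest Tek in subcluster 3, it was 0.46 (adjusted p = 0.492).

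Ptprb showed another order. It stood at 920.2, 913.7, 1492 and 1137 CPM in subcluster 3 and at 404.6, 753.3, 676.4 and 630.2 in subcluster 2, with no overlap in the 4 libraries. The log2 difference of subcluster 3 over subcluster 2 was 0.91 (SE 0.183, edgeR adjusted p = 0.000103), and over subcluster 1 it was 0.96 (SE 0.200, adjusted p = 0.000251, with 12.3% of genes called). Both differences missed the threshold without the filter on low counts, with adjusted p = 0.700 and 0.232. Against the mean of all other subclusters the log2 difference was 1.38 (SE 0.176, adjusted p = 8.58e-09, where 9.88% of genes were called higher) and stayed past the threshold in all 8 alternatives run.

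Tie1 in subcluster 3 stood at 276.1, 228.4, 157.1 and 334.5 CPM and in subcluster 2 at 181.8, 186.5, 173.1 and 201.0, values that overlapped. The log2 difference of subcluster 3 from the mean of the others was 0.93 (SE 0.312, edgeR adjusted p = 0.0320), and the call was lost without replicate 1, 2 or 4 (adjusted p = 0.0777, 0.0702 and 0.365), without cells holding markers of another type (0.741) and without the filter on low counts (0.731). Between subclusters 2 and 3 Tie1 did not differ at the threshold (adjusted p = 0.238). In subcluster 0 all 3 genes were lower than in the mean of the others, by log2 differences of -1.36 for Tek, -1.07 for Tie1 and -1.64 for Ptprb (adjusted p = 0.000225, 0.00385 and 4.05e-10), where 20.5% of genes were called lower. Without replicate 3 the Tie1 call there was lost (adjusted p = 0.0535). Its endothelial markers, at 0.261% of UMIs against 0.629% to 0.894% in the other subclusters, were lower too.

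**Figure D2:**
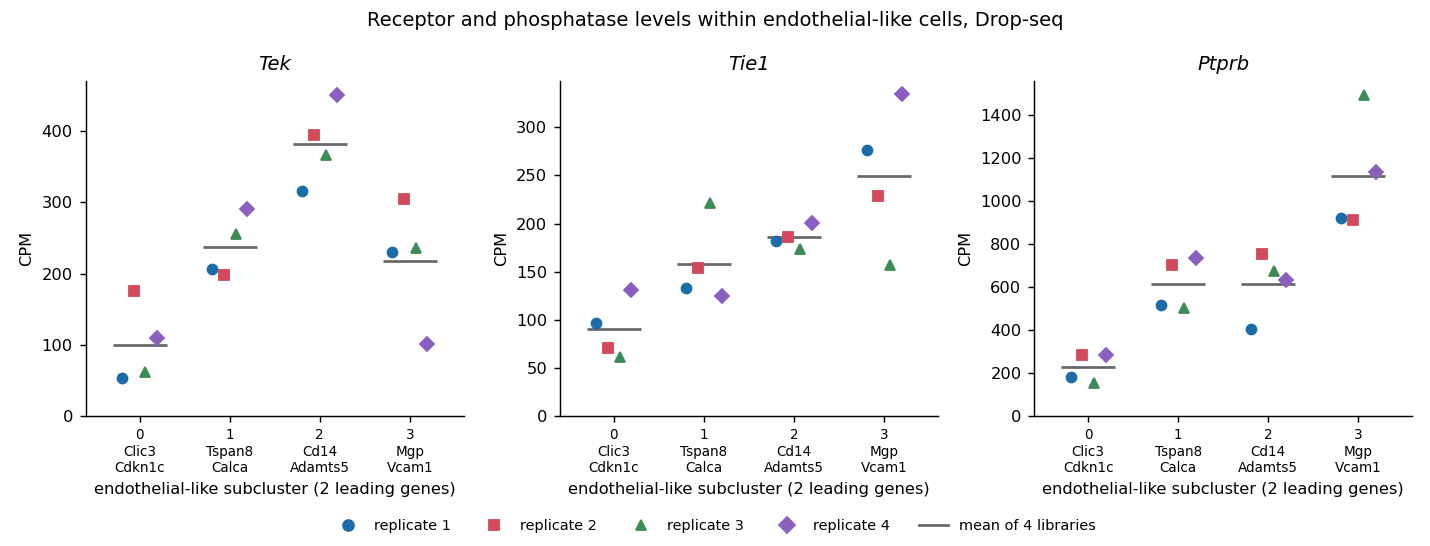
Tek, Tie1 and Ptprb in CPM (vertical axes) in the 4 endothelial-like subclusters (horizontal axes, with 2 leading genes each). Points are the 4 libraries and bars their mean: Tek is highest in subcluster 2, Ptprb in subcluster 3, and all 3 are lowest on average in subcluster 0, which carries podocyte markers.

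Pathway genes were read in the same subclusters. Klf2, a flow-responsive endothelial transcription factor, stood at 5567, 4911, 5066 and 6055 CPM in subcluster 3 and at 1705 ± 742 in subcluster 2 (log2 difference 1.76, SE 0.152, edgeR adjusted p = 4.43e-14). Nos3, the endothelial nitric oxide synthase that Akt phosphorylates, was spread from 117.1 to 549.8 CPM over the libraries in subcluster 3. It differed there from subcluster 0 (log2 difference 2.32, SE 0.471, adjusted p = 8.02e-05, edgeR), and not at the threshold from subcluster 1 (adjusted p = 0.764) or 2 (0.0821). Esm1, a FOXO1-repressed gene of activated endothelium, held 16 of its UMIs in the 155 cells of subcluster 3 and 14 in the 1068 cells of subcluster 2, and was not tested there.

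The genes whose levels ran most like each of the 5 were found by Pearson correlation of log2(CPM + 10) over 20 points, the 5 types in 4 libraries. These points share libraries and depth, the values are a description, and no p is given. Nearest to Tek were Sox17, an endothelial transcription factor (r = 0.99), Cyyr1, Ecscr, Rasip1 and Ece1 (r = 0.97 to 0.98). Nearest to Tie1 were Ifi44, Mfng, AI662270, Dram1 and Ces2e (r = 0.99), all without a UMI in mural-like and parietal epithelial-like cells, as Tie1 was. Nearest to Ptprb were Csgalnact1, Dll4, a Notch ligand, Gimap1, Ssu2 and Alpl (r = 0.96). Among the receptors themselves r was 0.93 for each of the 3 pairs. Nearest to Angpt2 were Hey2, a Notch target of vascular smooth muscle (r = 0.91), Fhl2, Rcan2, Gpc6 and Serping1 (r = 0.86 to 0.87), and nearest to Angpt1 were 2210408F21Rik, Gpr160, D1Ertd622e, Gm11410 and Snhg4 (r = 0.74 to 0.77). The choice of these 25 genes was unstable: 10 of them were again among the nearest 5 with a pseudocount of 1 CPM, and 4 with Spearman's correlation.

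A list of 35 other genes of Tie signalling was read alongside, and 24 of them could be tested. In endothelial-like cells 14 were higher and 6 lower than in the mean of the other types, with a median log2 fold of 0.61 against -0.01 over all genes tested, where 27.8% were called higher and 22.3% lower. Nos3 led the adaptors and effectors at 178.0 ± 24.3 CPM against 2.52 ± 0.910 in podocyte-like cells (log2 fold 5.14, SE 0.250, edgeR adjusted p = 8.90e-30). Also higher were Pik3r3, a regulatory subunit of phosphoinositide 3-kinase, at 2.56 (SE 0.299), Foxo1, the transcription factor that Akt holds out of the nucleus, at 1.74 (SE 0.286), and Klf2 at 1.67 (SE 0.111). Dok4, a docking protein, was called higher as well, at 34.3 ± 6.89 CPM, with no UMI in parietal epithelial-like cells. The 6 lower genes were Itgav, Nck2, Pak1, Foxo3, Pik3r1 and Ptpn11, at log2 folds from -1.19 to -0.40. The count of higher genes was 6 under a mitochondrial limit of 10% and 8 without cells holding markers of another type, and that of lower genes was 2 without replicate 3.

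**Figure D3:**
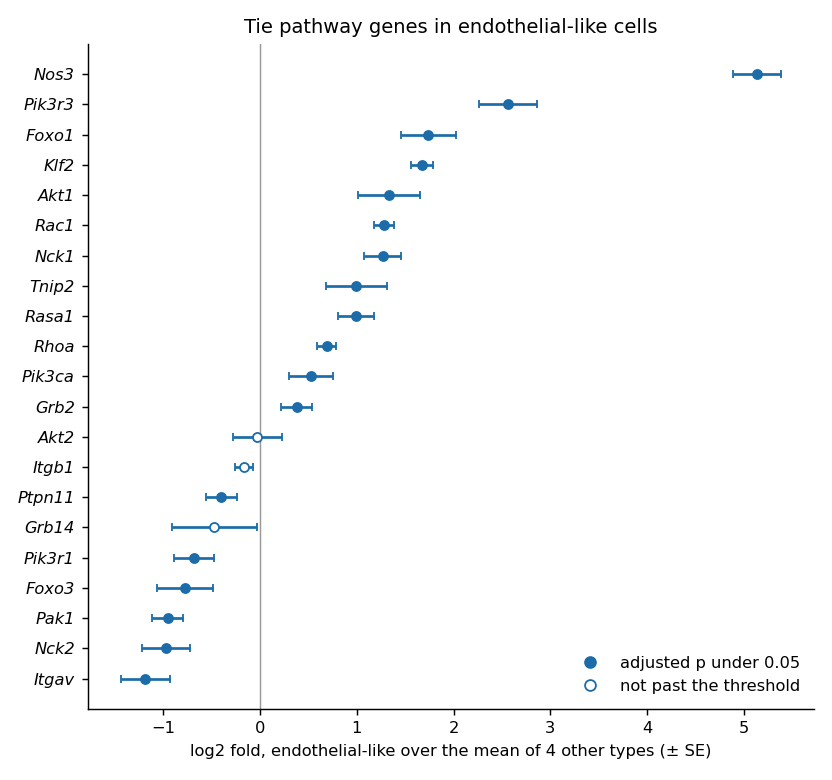
Log2 fold of 21 of the 24 tested Tie pathway genes in endothelial-like cells over the mean of the 4 other types (horizontal axis) with its standard error, one gene per line. Filled points passed the threshold of 0.05: Nos3 lies highest at 5.14, Itgav lowest at -1.19. Among those not drawn are Dok4 and Grb7, since a type without a UMI enters their fold.

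In podocyte-like cells 7 of the 24 were higher and 10 lower, beside 25.2% and 21.6% of all genes tested. The highest was Pak1, a kinase bound by Nck adaptors, at 834.5 ± 96.7 CPM (log2 fold 2.15, SE 0.102, edgeR adjusted p = 7.29e-30), followed by the adaptor Nck2 at 1.30 (SE 0.144). The largest falls were those of Grb14, at a log2 fold of -4.47, Nos3, at -2.54, Pik3r3, at -1.12, and Foxo1, at -1.03. Without replicate 4 the count of lower genes was 5 and without replicate 2 it was 6.

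Mural-like cells had 5 of the 24 higher (among them Tnip2, Pik3r1, Klf2 and Dok4) and 2 lower (Pak1 and Itgav), beside 12.4% and 10.3% of all genes. Tnip2, an inhibitor of NF-kB signalling that binds Tek, had a log2 fold of 1.83 (SE 0.462) and Pik3r1 one of 0.89 (SE 0.278), whereas Pak1 stood at -1.75 (SE 0.264) and Itgav, an integrin subunit, at -1.60 (SE 0.412). Without replicate 4 the count of higher genes was 1 and of lower genes 1, and without replicate 3 that of higher genes was 3. Parietal epithelial-like cells had 4 higher (Pak1, Itgav, Nck2 and Itgb1, at log2 folds of 1.52, 1.35, 1.09 and 0.49) and 1 lower (Klf2, at -0.69), beside 11.6% and 5.33%. These 4 genes were also called higher in podocyte-like cells, whose markers the parietal epithelial-like cells carried. Without replicate 2 their count was 2. In tubular-like cells 3 were higher and 11 lower, beside 27.5% and 26.7%. Grb14, an adaptor that binds activated Tek, was at 174.0 ± 24.9 CPM there (log2 fold 4.40, SE 0.210, edgeR adjusted p = 1.65e-30), and its relative Grb7 at 34.8 ± 3.41 CPM, at least 17.2-fold above the floor in endothelial-like cells, which held no UMI of it. Foxo3 was the third, at 0.71 (SE 0.231). Among the lower genes was the integrin subunit Itgb1, at -1.39 (SE 0.102). Without replicate 3 the count of lower genes in tubular-like cells was 7.

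Of the 11 list genes not tested, Angpt4, the remaining angiopoietin, gave 5 UMIs in mural-like cells and none in podocyte-like, endothelial-like or parietal epithelial-like cells. Tubular-like cells were not free of Angpt4 UMIs. Itga5, an integrin subunit that binds angiopoietins and Tek, was at 27.8 ± 0.884 CPM in endothelial-like cells, from 41 UMIs. The secreted ligand of Tie1, Svep1, gave 68 UMIs in podocyte-like cells (5.44 ± 1.15 CPM) and none in endothelial-like cells. At a floor of 3 UMIs over the endothelial-like cells, this places the podocyte-like level only at least 2.62-fold higher.

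Among 7 angiopoietin-like genes, secreted relatives that do not bind Tek or Tie1, only Angptl2 passed the filter. It stood at 314.6 ± 36.6 CPM in podocyte-like and 60.4 ± 5.99 CPM in endothelial-like cells, and was higher in podocyte-like cells than in the mean of the others by 2.03 on the log2 scale (SE 0.113, edgeR adjusted p = 4.08e-26). Angptl2 was also called higher in parietal epithelial-like cells, which carried podocyte markers (log2 fold 1.88, SE 0.183, adjusted p = 1.31e-13). Of 4 receptor phosphatases of the same R3 class as Ptprb, Ptpro and Ptprj could be tested. Ptpro, the podocyte member known as GLEPP1, stood at 468.8 ± 51.2 CPM in podocyte-like cells (log2 fold 1.95, SE 0.105, adjusted p = 6.24e-27), and Ptprj at 48.7 ± 8.87 (log2 fold 1.06, SE 0.218, adjusted p = 3.58e-05). Parietal epithelial-like cells were called higher for Ptpro too (log2 fold 1.47, SE 0.168, edgeR adjusted p = 4.17e-11). Ptprb was lower in podocyte-like cells than in the mean of the other types, which includes endothelial-like cells (log2 fold -2.69, SE 0.504, adjusted p = 6.23e-06). In pairs, its podocyte-like level did not differ at the threshold from the tubular-like or parietal epithelial-like level (edgeR adjusted p = 0.169 and 0.844). It was called below the mural-like level (0.00608), a call lost without replicate 4.

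The bulk libraries set whole glomeruli beside dissociated, fixed and sorted cells, with 28407317 and 24555632 reads on genes and 1 library each, so that no difference has a replicate check and intervals cover counting error only. In bulk samples fewer cells of a type and less RNA per cell cannot be told apart, and dissociation, fixation, sorting and RNA amount changed together. All 5 genes were more than 2-fold lower in the dissociated library, a change that 18.9% of the 12692 genes compared showed. The median log2 ratio of all genes was -0.01, and scaling to the total count alone would lower it to -0.32 and each gene's ratio with it.

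Angpt2 had the largest difference, with 3964 reads in whole glomeruli and 108 in dissociated cells, or 125.1 and 4.90 CPM after TMM scaling. The log2 ratio was -4.65 (95% interval -4.96 to -4.40), a 25.1-fold lower level. Mcph1, the gene on the other strand, had 308 and 113 reads. Angpt1 had 119 and 29 reads (log2 ratio -1.46, interval -2.15 to -0.92). Tek had 17120 and 2162 reads (log2 ratio -2.46, interval -2.53 to -2.40), Tie1 had 11223 and 2283 (-1.77, -1.84 to -1.71) and Ptprb had 20430 and 2150 (-2.72, -2.79 to -2.66). The 3 endothelial transcripts thus differed in size, with Tie1 lower by less than Tek and Ptprb, beyond counting error.

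**Figure D4:**
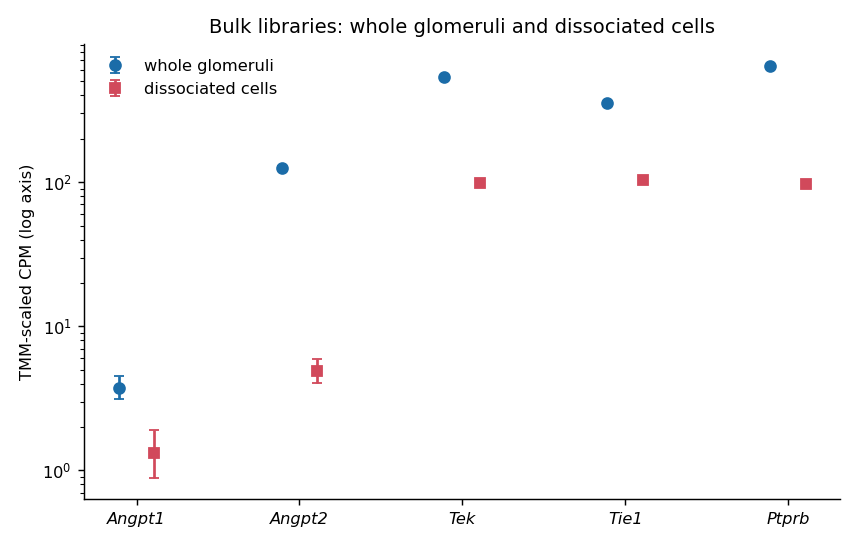
TMM-scaled CPM (vertical axis, log scale) of the 5 genes in the whole (circles) and dissociated (squares) bulk library, with 95% counting intervals, which are narrower than the symbols for most points. Each gene is lower in the dissociated library, Angpt2 by the widest gap.

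Per kilobase of GENCODE exon, the whole-glomerulus levels were ordered Tek (114.7 RPKM), Tie1 (72.1), Ptprb (48.4), Angpt2 (33.9) and Angpt1 (0.722). In the dissociated library Tie1 (21.1) and Tek (20.8) came first, followed by Ptprb (7.32), Angpt2 (1.33) and Angpt1 (0.253). Angpt1 was thus the lowest of the 5 in both libraries.

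Markers of the cell types moved as well. All 7 endothelial markers were lower in the dissociated library, with log2 ratios from -2.22 for Eng to -0.32 for Ly6c1 and a median of -1.38. Tek and Ptprb lay below this range and Tie1 inside it. Of 7 mural markers compared, the mesangial genes Itga8 (-6.44), Serpine2 (-4.82) and Pdgfrb (-2.77) were far lower and Rgs5 was lower by less (-1.55), whereas Acta2 (0.06), Ren1 (-0.11) and Myh11 (-0.18) of smooth muscle and renin cells were close to 0. Of 9 tubular markers, 8 lay below 0, from -7.64 for Slc34a1, and Aqp2 was the highest at 0.20; their median was -0.53 and 3 were more than 2-fold lower. All 8 podocyte markers lay above 0. Of 33 Tie pathway genes compared, 5 were more than 2-fold lower and 3 more than 2-fold higher, with a median of 0.09, beside 18.9% lower and 10.7% higher of all genes compared. The largest were Dok4 (-2.60), Pik3r1 (-2.11), Foxo1 (-1.94), Pak1 (1.85), Grb7 (-1.30) and Nck2 (1.26).

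**Figure D5:**
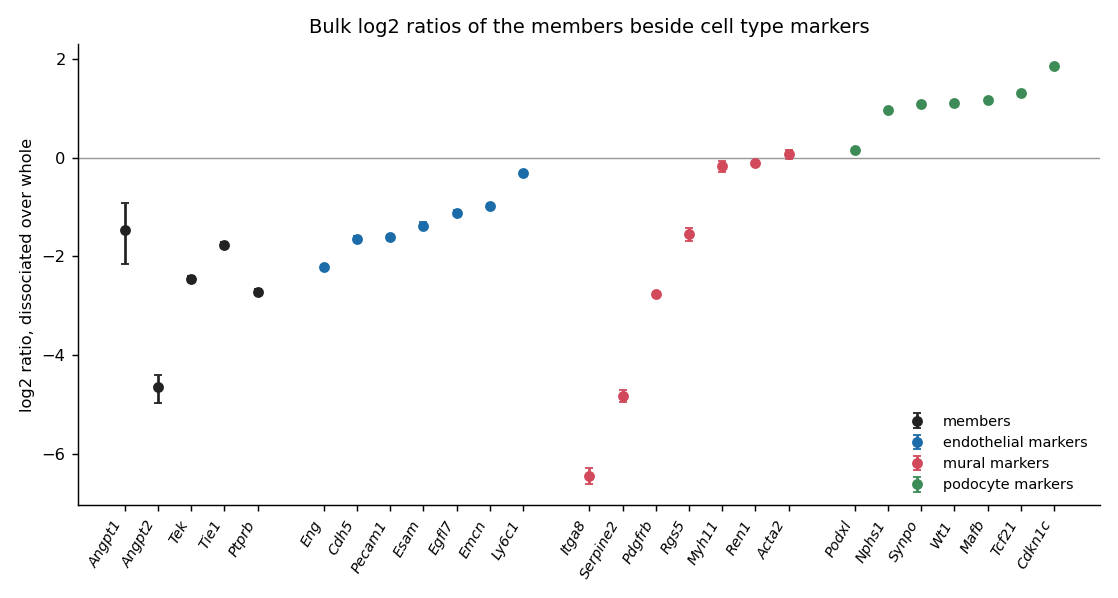
Log2 ratio of the dissociated over the whole bulk library (vertical axis) with 95% counting intervals for the 5 genes (black) and the endothelial (blue), mural (red) and podocyte (green, 7 drawn) markers with at least 100 reads. Angpt2 at -4.65 lies near Serpine2 at -4.82, and Tek and Ptprb lie below the lowest endothelial marker, Eng at -2.22.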

How the data were processed

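The authors deposited Drop-seq UMI counts per gene and barcode and bulk read counts per gene. STAR and HTSeq were used per the submitters' processing notes, with no versions. Build, annotation and strand setting: not given in the sources used here. Coordinates are from GENCODE (GRCm38). HTSeq summary lines, 22.9% and 24.8% of the bulk counts, were left out.

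Cells were clustered with scanpy 1.11.5 on 2000 variable genes (30 components, 15 neighbours, Leiden resolution 1.0) without the 51 listed genes, and clusters were named from 9 marker lists. A cluster of 59 cells was left unnamed by a rule chosen after the clusters were seen (no marker among its 10 leading genes and a score lead under 0.3). No doublet caller was run. An alternative left out cells with 2 or more marker UMIs of another type. UMIs were summed per library and type (minimum 20 cells a sum and 3 libraries a type). The sums were tested in R 4.3.3 with edgeR 4.0.16 after TMM scaling. A printed SE is the fold divided by the root of the test statistic. Types of a library come from 1 suspension (median correlation of their deviations 0.258 over 40 pairs), so library was a block. Bulk values were compared as TMM-scaled CPM for genes with 100 or more reads, adding a prior count of 2. Intervals are exact 95% intervals. The fits were tested on simulated data. DESeq2 1.42.0 was an alternative.

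Some genes of the lists are not reported here. The 5 genes and all lists were chosen with earlier results of these data known. Named were the 5 genes, up to 6 genes of each list per type or bulk comparison by size of change, the 5 most like genes, and up to 10 leading genes of a cluster. Esm1, Itga5, the remaining members of short counts and the cell type markers quoted were chosen after their values were seen.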

Additional observations from a re-analysis of the deposited data

Results flagged for a closer look

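In endothelial-like cells Tie1 stood at 199.0 CPM in replicate 4, apart from 155.6, 159.8 and 161.7 in the other 3 libraries. In mural-like cells Angpt1 stood at 50.3 CPM in replicate 2, from 2 UMIs, and at 0 in the others. Angpt2 in parietal epithelial-like cells stood at 95.6 CPM in replicate 3, from 10 UMIs, against 0, 0 and 11.4. Angpt2 in endothelial-like subcluster 0 stood at 17.6 CPM in replicate 2, from 1 UMI, against 0 in the others. In each of these 4 groups a single library lay far from the rest. 45 groups of 4 libraries were checked. Chance sets apart about 1 in 20 for normally distributed values, a rate that does not apply to counts this sparse. Where 3 libraries are at 0 and the other is not, the flag follows from the zeros alone. Barcodes left out of the comparisons also held UMIs of the 5 genes: barcodes above the mitochondrial limit held 10 of Angpt1 and 9 of Ptprb, and barcodes with under 300 genes held 18 of Tek, 11 of Tie1 and 50 of Ptprb.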

How the results depend on the processing

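Tek, Tie1 and Ptprb were called higher in endothelial-like cells in all 13 alternatives run, and all 5 genes were more than 2-fold lower in the dissociated bulk library in all 3. Calls of the 5 genes between endothelial-like cells and another type, or between mural-like and podocyte-like cells, numbered 17 and ranged from 14 to 19. In the main fit 4 of the 5 genes were tested. The 17 include calls against types without a UMI of the gene. Of all genes tested, the contrasts of endothelial-like with podocyte-like, mural-like, parietal epithelial-like and tubular-like cells called 60.6%, 25.5%, 36.7% and 61.7%. Mural-like against podocyte-like cells called 33.7%. Cell types of a library share 1 suspension. Without the replicate block the calls higher in endothelial-like cells numbered 3, those between types 17 and the subcluster calls 6, as with it. The Tek differences of subcluster 2 from 3 and from 1 were lost without the block (adjusted p = 0.0610 and 0.0844, edgeR). The 6 subcluster calls became 2 without cells holding markers of another type, which removed subcluster 0, and 5 without any 1 library. Angpt2 in parietal epithelial-like cells against the others reversed to -0.45 on the log2 scale without replicate 3, and ranged from there to 3.80. The cause was not tested.

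Counts of Tie pathway genes moved most. Without the filter on low counts they were 13 higher and 3 lower in podocyte-like, 3 higher in mural-like and 2 lower in parietal epithelial-like cells. Without cells holding markers of another type they were 4 lower in podocyte-like, 8 higher in endothelial-like, 3 higher in mural-like and 6 lower in tubular-like cells. With at least 500 genes per cell they were 5 lower in podocyte-like, 8 higher and 1 lower in endothelial-like, and 2 higher in mural-like cells. At most 10% mitochondrial UMIs gave 3 lower in podocyte-like, 6 higher in endothelial-like, 2 higher in mural-like, 2 higher in parietal epithelial-like, and 0 higher and 4 lower in tubular-like cells. Against all other cells summed they were 4 lower in mural-like and 0 higher in parietal epithelial-like cells. Leaving out 1 library gave 5 to 8 lower in podocyte-like, 2 to 4 lower in endothelial-like, 1 to 5 higher and 1 to 2 lower in mural-like, 2 to 4 higher in parietal epithelial-like and 7 to 10 lower in tubular-like cells.

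Shares of endothelial-like cells with a UMI followed depth. At 300 UMIs per cell, 1000 UMIs per cell and without thinning they were 7.85%, 18.5% and 17.5% for Tek, 5.07%, 12.0% and 12.0% for Tie1, and 15.2%, 34.1% and 30.4% for Ptprb. Of the 25 genes named as most alike, 10 were named again with a pseudocount of 1 CPM, 4 with Spearman correlation and 9 to 13 without 1 library. Parietal epithelial-like cells could not be fitted without cells holding markers of another type. The ligands had the fewest UMIs, 62 and 40, which limits their precision.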
